A study of Homo sapiens with 2 samples.

Results

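The genes of the proteasome and of the chaperones that assemble it were compared between HCT116 cells, an established human colon carcinoma line, exposed to 20 µM LXR623, which activates liver X receptors, and HCT116 cells that received 0.1% DMSO as the solvent control. Exposure to LXR623 lasted 24 h, and the treatment label of the control gives no time. Total RNA was hybridized to expression arrays, with 1 array per condition. The members were all genes of the table whose annotated symbol begins with PSMA, PSMB, PSMC, PSMD, PSME, PSMF or PSMG and a digit, without PSMB8 and PSMB9 and without pseudogenes and antisense genes. This gave 43 genes of 22458 with a single symbol. A further 5 subunits of the particle were not analysed here. With 1 array per condition there is no replicate check, so no test, error or p-value is given, and every value describes a pair of arrays that stand for 1 culture each. The labels name RPMI as the medium and the methods name DMEM for this line. Treatment took place in medium with less serum than during growth.

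The 26S proteasome degrades proteins that carry ubiquitin chains. Its 20S core is a barrel of alpha rings, which gate the entry, around beta rings, whose subunits PSMB5, PSMB6 and PSMB7 cut the substrate. The 19S cap recognizes the ubiquitin chain, removes it and unfolds the substrate with a ring of ATPases. Dedicated chaperones assemble both parts, and activators such as PSME1 can replace the cap. The transcription factor NFE2L1 is known to raise subunit genes together when proteasome activity falls short, through antioxidant response elements in their promoters.

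The authors used RMA to obtain the log2 intensities given here. A difference is the LXR623 value minus the DMSO value, so that -0.58 stands for a 1.5-fold lower and -0.26 for a 1.2-fold lower intensity. The median of the table was 4.42, and genes at or above it in at least 1 array counted as measured. This held for 12279 features and for 41 of the 43 members. The exceptions were PSMA8, an alpha subunit of the testis, with 2.15 (DMSO) and 2.23 (LXR623), and PSMB11, the catalytic subunit of the thymus, with 2.63 and 2.14. Of 14 markers of colon epithelium, 10 were measured, EPCAM with 10.15 and 10.21 among them, whereas KRT20, CDX1, VIL1 and LGALS4 were not. Of 13 markers of fibroblasts, leukocytes, endothelium and glia, 1 was measured, COL1A1 with 5.58 and 5.70.

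Proteasome genes were slightly lower as a group in the LXR623 array. Of the 41 measured members 35, or 85.4%, had a lower value with LXR623, while 51.7% of all measured features did. The median difference of the members was -0.23 and that of all measured features was -0.02. The middle part of the members, from the 25th to the 75th percentile, ran from -0.37 to -0.11, and that of all measured features from -0.26 to 0.23. The standard deviation across genes was 0.27 for the members and 0.40 for all measured features, where genes are not independent replicates.

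The differences were small. At 1.5-fold, 3 members were lower and 0 higher. The 3 lower members are 7.32% of those measured, near the 5.78% of all measured features that passed in this direction, and 6.3% of all features passed in the other. At 1.2-fold, 18 members, or 43.9%, were lower, against a background of 24.3%, and 2 members, or 4.88%, were higher, against 22.2%. At or under the 25th percentile of all measured differences, where by definition 25% of features lie, were 19 members, or 46.3%. Only 2 members, PSMG3 and PSMC3IP, lay outside the central 95% of all measured differences, which ran from -0.76 to 0.82. A difference of the usual size among the members was thus well within the range of single genes, and the pattern lies in the shared direction. With 1 culture each, the compound and any other way in which the cultures differed cannot be told apart.

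Most members are bright on these arrays. Of the 41 measured members, 37 reached the 75th percentile of the table, 6.78. Among the 6364 features at this level the median difference was -0.04, 53.8% were lower with LXR623 and 24.1% were at least 1.2-fold lower. Of the 37 bright members 33, or 89.2%, were lower and 16, or 43.2%, were at least 1.2-fold lower. Across the 41 members the difference had a Pearson correlation of 0.05 and a Spearman correlation of -0.09 with mean intensity, given as a description over genes that share both arrays.

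**Figure D1:**
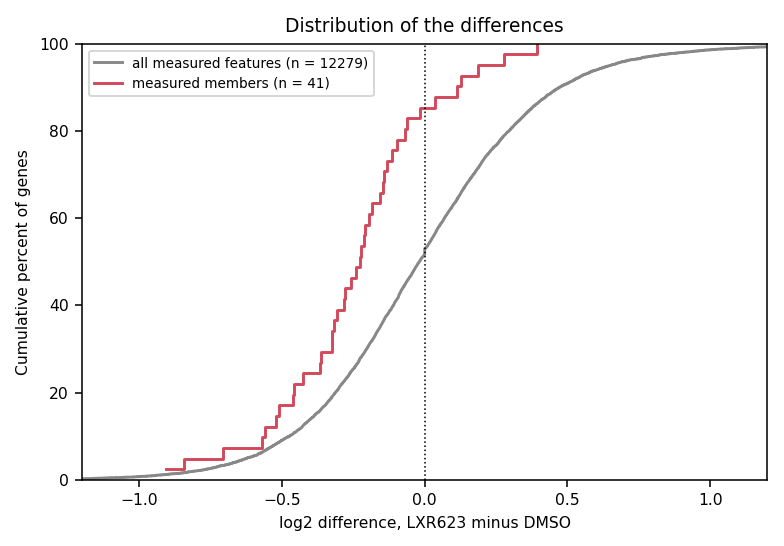
Cumulative percent of genes (vertical axis) against the log2 difference, LXR623 minus DMSO (horizontal axis), for the 12279 measured features (grey) and the 41 measured members (red). The curve of the members lies to the left over most of its range, with 85.4% of members under 0 against 51.7% of all features, and both curves come close at the lower end, where 3 members pass 1.5-fold.

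In the alpha ring, each of the 7 measured subunits had a lower value with LXR623, and the median difference was -0.19. PSMA7 had the largest gap, with 9.30 (DMSO) and 8.99 (LXR623), a difference of -0.31. PSMA6 (-0.23), PSMA4 (-0.22), PSMA5 (-0.19) and PSMA2 (-0.18) lay close together. PSMA1 (-0.07) and PSMA3 (-0.02) hardly differed between the arrays, and PSMA7 was the only subunit of this ring past 1.2-fold.

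The beta ring had a median of -0.21 over 8 measured subunits, of which 7 were lower. Among the subunits that cut, PSMB6, the caspase-like subunit, went from 9.29 to 8.87, a difference of -0.43. PSMB5, the chymotrypsin-like subunit, had 9.82 and 9.67, a difference of -0.15. PSMB7, the trypsin-like subunit, had 10.19 and 10.05, a difference of -0.13. Of the structural beta subunits, PSMB2 differed by -0.37, PSMB4 by -0.28, PSMB3 by -0.26 and PSMB1 by -0.10. PSMB10, which takes the place of PSMB7 in the immunoproteasome, had the opposite sign, with 5.69 (DMSO) and 5.88 (LXR623), a difference of 0.19. The other immunoproteasome subunits, which were not among the members, were dim: PSMB9 had 4.40 and 4.45, at the level that counts as measured, and PSMB8 had 2.91 and 2.72, under it.

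The ATPases of the 19S base were lower in each of 4 measured cases, with a median of -0.27. PSMC6 had the largest difference of all core and cap subunits, from 7.65 with DMSO to 6.94 with LXR623, a difference of -0.71, or 0.613-fold. PSMC3 (-0.32) and PSMC4 (-0.21) followed, and PSMC2 differed by -0.06. Genes of a single hexamer thus ran from -0.71 to -0.06.

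The remaining cap subunits among the members stood lowest among the roles. All 8 measured non-ATPase subunits with a PSM symbol were lower, 7 of them at least 1.2-fold, and their median was -0.41. Of all measured features, 51.7% were lower and 24.3% were at least 1.2-fold lower. PSMD11, a lid subunit that clamps the cap to the core, had 9.78 and 9.21, a difference of -0.57 that stops just short of 1.5-fold. PSMD12, another scaffold of the lid, had 9.64 and 9.12, a difference of -0.52. PSMD14, the protease that removes the ubiquitin chain from the substrate, had 9.55 and 9.04, a difference of -0.51. PSMD1 and PSMD2, the large scaffolds of the base, differed by -0.46 and -0.32. PSMD6 (-0.36), PSMD3 (-0.28) and PSMD8 (-0.21) belong to the lid. Over the core and cap subunits among the members, 26 of 27 measured were lower, against 51.7% of all measured features. Their median was -0.26, and PSMB10 was the exception.

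**Figure D2:**
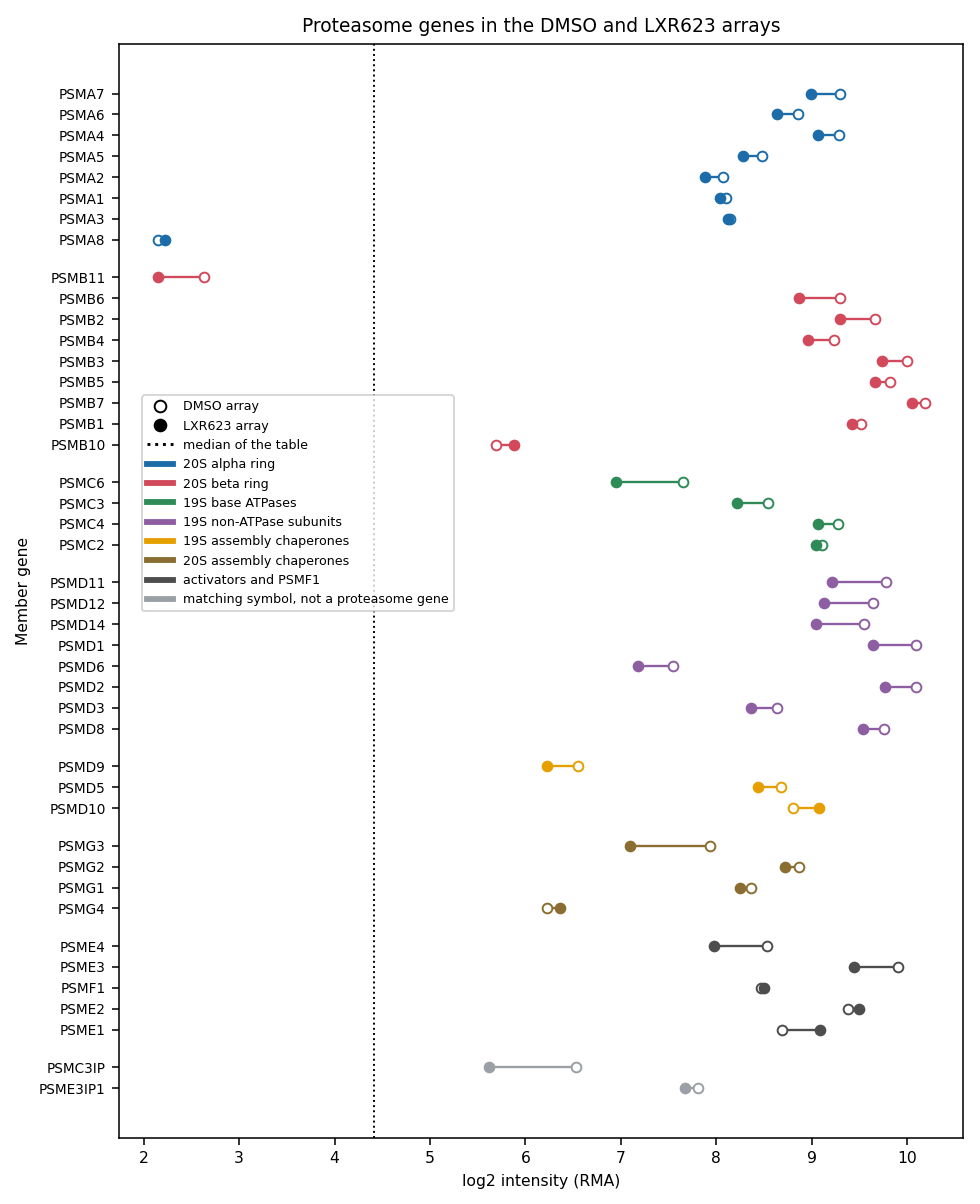
Log2 intensity (horizontal axis) of each of the 43 members (vertical axis, grouped by role) with DMSO (open circles) and with LXR623 (filled circles), with 1 array per condition. The dotted line is the median of the table, 4.42. Intensities of different genes are not comparable with each other, so only the gap within a line is read. The gap points to lower values with LXR623 in 26 of 27 measured core and cap members, against 51.7% of all measured features.

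Assembly chaperones did not share 1 direction. PSMG3, which pairs with PSMG4 to help build the alpha ring, went from 7.94 with DMSO to 7.09 with LXR623, a difference of -0.84, or 0.557-fold, the largest of all proteasome genes measured. Its partner PSMG4 had 6.23 and 6.36, a difference of 0.13. PSMG1 and PSMG2, the other pair of alpha ring chaperones, differed by -0.11 and -0.15. The median of these 4 genes was -0.13 and their mean, which PSMG3 pulls down, was -0.24.

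Among the chaperones of the 19S base, PSMD10, also known as gankyrin, was higher with LXR623, with 8.80 and 9.08, a difference of 0.28. PSMD9 had 6.55 and 6.23, a difference of -0.32, and PSMD5, another of these chaperones, differed by -0.24. The median of -0.24 over these 3 genes was 0.02 over the 2 that reach the 75th percentile of the table, so no direction is read from it.

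The activators had values on both sides of 0. PSME1, which forms with PSME2 the ring that interferon gamma induces, had the largest positive difference of the members, from 8.69 to 9.09, a difference of 0.39. PSME2 had 9.38 and 9.50, a difference of 0.11. PSME4, the large single-chain activator of the nucleus, had 8.53 and 7.98, a difference of -0.56. PSME3, the nuclear relative of PSME1, differed by -0.46. PSMF1, first described as an inhibitor of the core, had 8.46 and 8.50, a difference of 0.04. The median of these 5 genes was 0.04 and their mean was -0.09, so the group has no direction of its own.

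The last 2 genes match by name only. PSMC3IP, a recombination factor named for its binding to PSMC3, had the largest difference of all members, from 6.53 to 5.62, a difference of -0.91, or 0.534-fold. PSME3IP1, a binding partner of PSME3, had 7.81 and 7.67, a difference of -0.14. Without both, the median of the remaining 39 members was -0.23, and 33 of them were lower. Of the 3 members past 1.5-fold, PSMC3IP, PSMG3 and PSMC6, 1 was therefore a subunit and 1 a chaperone.

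**Figure D3:**
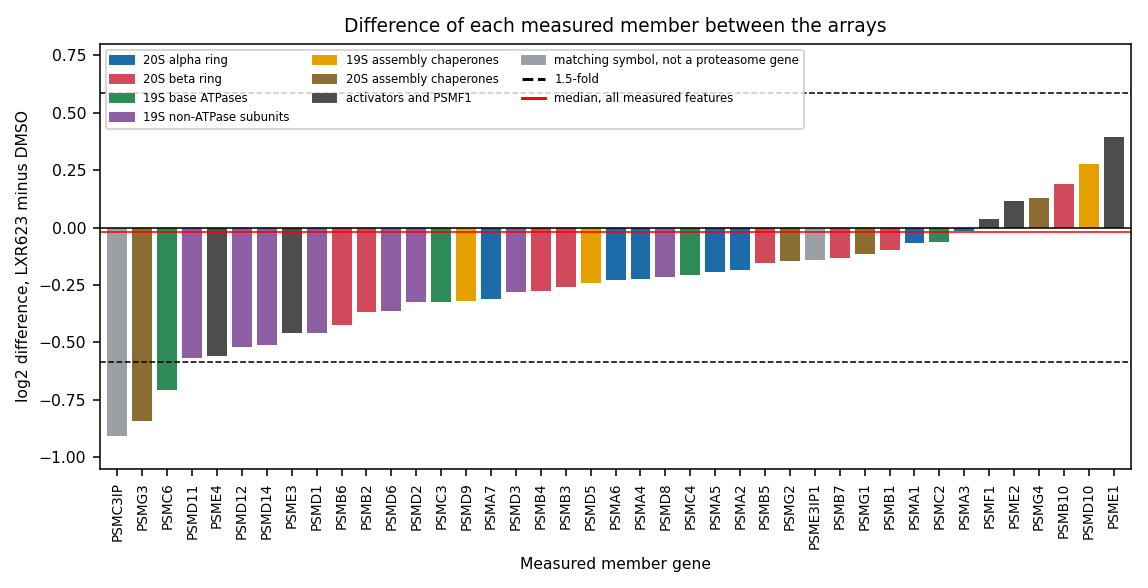
Log2 difference, LXR623 minus DMSO (vertical axis), of each of the 41 measured members (horizontal axis), colored by role and sorted. Bars start at 0, dashed lines mark 1.5-fold and the red line the median of all measured features, -0.02; 35 bars point down, 3 pass the lower dashed line and none passes the upper.

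Promoter sequences were read to see what the members share besides their name. RefSeq promoters on GRCh38.p14, which reach from 250 bases before to 50 bases after a start, were used for 38 of the 43 members in 47 windows of 300 bases. Promoters of PSMA7, PSMB1, PSMB6, PSMB7 and PSMG3 were not analysed here. The core of the antioxidant response element, TGACNNNGC on either strand, was in 13 of the 47 windows, or 27.7%, in 13 members. It was in 13.3% of all 35116 promoters and in 14.7% of the 13400 promoters of measured genes. The CCAAT box, CCAAT on either strand, was in 21 windows, or 44.7%, against 34.6% of all promoters and 34.9% of those of measured genes. The core of the element bound by ATF4, TGATGNAA on either strand, was in 1 window, or 2.13%, that of PSMF1, against 3.62% of all promoters and 1.94% of those of measured genes. No matches of different motifs overlapped in these windows.

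The members with and without the antioxidant response element core had nearly the same median difference. Over the 13 members with it the median was -0.24, with values from -0.56 to 0.39. Over 23 measured members without it the median was -0.21, with values from -0.91, that of the name match PSMC3IP, to 0.28. A role of NFE2L1 was not tested. Windows around the core are shown for members from both ends of the scale, with the match in capitals, 5′ to 3′ on the strand of the gene. PSME4, PSMD12 and PSMD1 were among the lowest members, PSMB3 and PSMA4 lay near the median, and PSME2 and PSME1 were higher with LXR623.
PSME4 (chr2:53970999-53971047, minus strand): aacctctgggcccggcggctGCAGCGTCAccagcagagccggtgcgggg
PSMD12 (chr17:67366714-67366762, minus strand): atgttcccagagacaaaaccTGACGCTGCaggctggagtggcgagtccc
PSMD1 (chr2:231056886-231056916, plus strand): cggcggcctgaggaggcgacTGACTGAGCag
PSMB3 (chr17:38752617-38752665, plus strand): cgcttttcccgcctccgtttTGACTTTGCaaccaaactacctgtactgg
PSMA4 (chr15:78540640-78540688, plus strand): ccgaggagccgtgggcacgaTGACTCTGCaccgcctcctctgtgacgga
PSME2 (chr14:24146757-24146805, minus strand): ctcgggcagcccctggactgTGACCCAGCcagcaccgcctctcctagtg
PSME1 (chr14:24136088-24136136, plus strand): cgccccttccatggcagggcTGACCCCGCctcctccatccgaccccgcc

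The promoter of PSMC6, the core or cap subunit with the largest difference, holds neither the antioxidant response element core nor a CCAAT box nor the ATF4 element core in its window, and is shown in full for that reason (chr14:52706950-52707249, plus strand, GRCh38.p14).
PSMC6: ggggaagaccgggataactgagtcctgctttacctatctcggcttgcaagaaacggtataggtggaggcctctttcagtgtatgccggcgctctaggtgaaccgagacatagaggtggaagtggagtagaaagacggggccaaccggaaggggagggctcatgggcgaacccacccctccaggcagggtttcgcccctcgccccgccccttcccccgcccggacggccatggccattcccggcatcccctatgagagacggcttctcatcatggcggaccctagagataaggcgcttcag
A match or its absence describes these letters in this window only.

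Genes around NFE2L1 had values on both sides of 0. NFE2L1 itself had 9.74 (DMSO) and 9.98 (LXR623), a difference of 0.25, and its relative NFE2L2 differed by -0.07. DDI2, the protease that cuts NFE2L1 into its active form, had 7.83 and 7.37, a difference of -0.46. SYVN1, a ubiquitin ligase of the ER that turns NFE2L1 over, was higher with 7.38 and 8.17, a difference of 0.79, and MAFF, a small partner of the NFE2 family, differed by 0.40. The 13 measured genes of this list had a median of -0.05, with 1 at least 1.5-fold higher and 0 lower. Of all measured features 6.3% were higher and 5.78% lower at this threshold, so no result about the list is read from the 1 gene.

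Proteasome factors outside the PSM nomenclature were a second point of reference. UCHL5, a deubiquitinase of the cap, had 7.04 and 6.56, a difference of -0.48. ADRM1, the ubiquitin receptor that holds UCHL5, had 8.89 and 8.53, a difference of -0.36. POMP, which matures the core, differed by -0.23 and USP14, another deubiquitinase of the cap, by -0.11. SEM1 had 8.71 and 8.68, a difference of -0.03. SEM1 and ADRM1 also belong to the cap but not to the members, so the counts of cap subunits leave them out. Of 12 measured factors 9 were lower, against 51.7% of all measured features. None passed 1.5-fold, where 6.3% of all measured features were higher and 5.78% lower. Their median of -0.04 was near the -0.02 of all measured features.

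Other large complexes are given beside the proteasome as values only, since no test of a difference between lists can be made from a pair of arrays. The COP9 signalosome, which removes NEDD8 from cullins and is built like the lid, had a median of -0.23, with 8 of 10 genes lower, among them COPS9 (-0.39), COPS7B (-0.37) and COPS3 (-0.36). The CCT chaperonin, which folds actin and tubulin, had a median of -0.42, with 8 of 8 genes lower and TCP1 (-0.54), CCT2 (-0.48) and CCT8 (-0.44) at the lower end. The initiation factor eIF3, another relative of the lid, had a median of 0.06, with 6 of 12 genes lower and values from EIF3B (-0.27) and EIF3J (-0.24) to EIF3L (0.36). None of the genes of these 3 complexes passed 1.5-fold. Lower values with LXR623 were thus also the rule in the CCT chaperonin and, with 8 of 10 genes, in the COP9 signalosome, but not in eIF3.

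**Figure D4:**
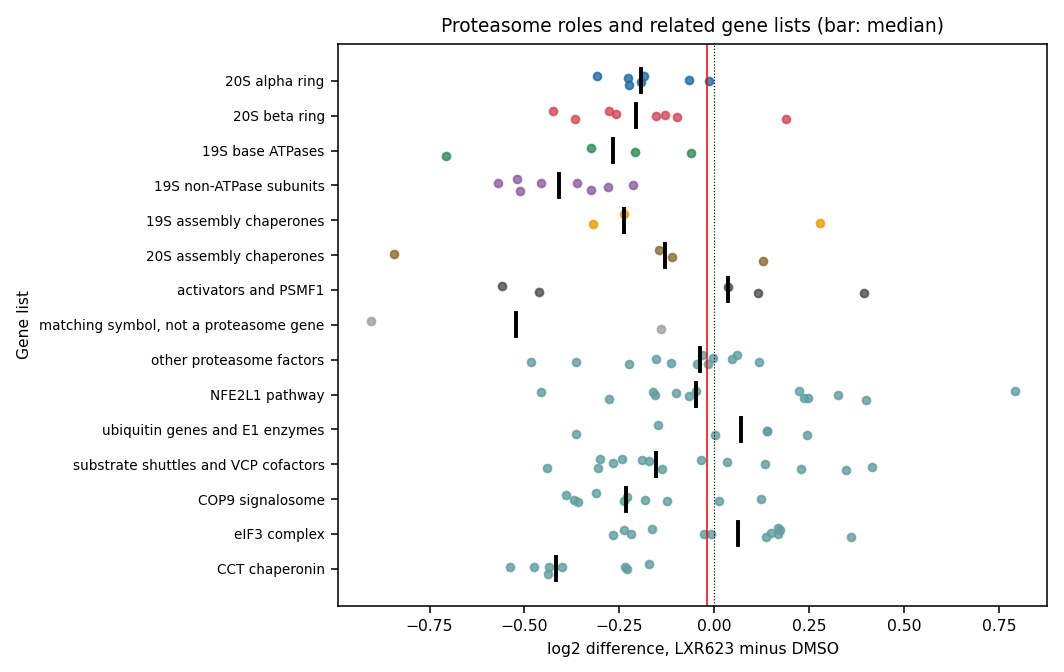
Log2 difference, LXR623 minus DMSO (horizontal axis), of each measured gene (points, spread vertically for legibility) in the roles of the proteasome and in related lists (vertical axis), with list medians as black bars and the median of all measured features, -0.02, as a red line. The non-ATPase subunits, with a median of -0.41, lie wholly to the left of the red line, as does the CCT chaperonin with -0.42, and eIF3 spreads around it.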

How the data were processed

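The deposited table holds log2 intensities that the authors made by RMA, which subtracts background, normalizes arrays and summarizes probes. Tools named by the submitters' processing notes are R 2.15.1 with affy 1.36.1. The array design and genome build are not given in the sources used here. Of 23786 probe sets, 22458 carry a single symbol in the platform annotation, 1 probe set per gene. The other 1328 carry no single symbol, are unnamed here and enter only counts over all features. The number of arrays limits the precision. Differences, LXR623 minus DMSO, were counted at 1.5-fold with no test. Features entered when the higher value reached the table median.

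Members, lists and motifs were chosen with earlier results of these data known. Values of both arrays are given for the 6 members at each end, the catalytic subunits, name matches and unmeasured members. In each list the 3 measured genes with the largest difference and genes set by name are given, some by their difference only, as are most other members. Values of further lid, ring and marker genes were added for description. Alternatives were other filters, 1.2-fold and 2-fold thresholds, quantile normalization, removal of a lowess trend (fraction 0.3), the mean, and leaving out name matches. The calculations were tested on simulated data. Software was numpy 2.4.6, statsmodels 0.14.6, scipy 1.17.1, pandas 2.3.3 and matplotlib 3.10.9 on Python 3.11.15.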

Additional observations from a re-analysis of the deposited data

How the results depend on the processing

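No paired analysis was possible because each group holds 1 array. The median of the members ran from -0.23 to -0.20 over the alternatives, and their mean was -0.25. With the filter at the 75th percentile 33 of 37 members were lower, and with no filter 36 of 43. With the lowess trend removed or after quantile normalization, 0 of 41 members changed side of 1.5-fold, and 34 and 35 were lower. A threshold of 2-fold left 0 lower members, and one of 1.2-fold gave 18 lower and 2 higher, as the threshold alone changes. A filter at the 75th percentile leaves fewer genes and moved the median of the 19S assembly chaperones to 0.019 and that of the name matches to -0.14. Means instead of medians gave -0.0935 for the 19S assembly chaperones, -0.24 for the 20S assembly chaperones and -0.0949 for the activators with PSMF1, as single genes weigh more in lists of 3 to 5. Other role medians moved by less than 0.1, and leaving out the name matches empties their own group and leaves the others as they are. Without replicates, neither the spread of a gene nor of a list between cultures is known.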

Other observations

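Genes for ubiquitin, NEDD8 and their activating enzymes had no shared direction. Of 11 genes listed, 6 had a named probe set, and all of these were measured. In the LXR623 array 4 were higher and 2 lower, with a median difference of 0.07 and 0 past 1.5-fold. NAE1, a subunit of the NEDD8 activating enzyme, had 8.84 with DMSO and 8.48 with LXR623, a difference of -0.37. NEDD8 itself had 9.45 and 9.70, a difference of 0.24, and UBA6, an activating enzyme of ubiquitin, differed by -0.15.

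Shuttle factors and cofactors of VCP, the ATPase that extracts ubiquitinated proteins from complexes, had a median difference of -0.15 over 14 measured genes, of which 9 were lower and 0 passed 1.5-fold. PLAA, a ubiquitin-binding cofactor of VCP, had 8.61 and 8.17, a difference of -0.44. ZFAND1, which brings VCP and the proteasome to stress granules, had 8.25 and 8.66, a difference of 0.42. UBXN4, a cofactor at the ER membrane, had 8.41 and 8.76, a difference of 0.35.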
